A study of Homo sapiens with 22 samples.

Results

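The 46 genes described here encode the machinery that copies DNA, and they were chosen as a list of gene symbols by role, from origin licensing to nucleotide supply. All 46 were present among the 59087 gene names of both raw count tables, and all 46 passed the filter on low counts in both experiments, where 13879 genes were tested in the BAZ1B experiment and 13236 in the H2A.X experiment. RNA-Seq was done in HUDEP-2, a line of human erythroid progenitors from umbilical cord blood that was immortalized with doxycycline-inducible viral oncogenes. The BAZ1B experiment holds 3 WT and 3 BAZ1B KO libraries at D0 and again at D6, and the H2A.X experiment holds 2 WT and 3 H2A.X KO libraries at D0 and again at D6, 22 libraries in all. D0 cells grew in expansion medium with SCF, erythropoietin, dexamethasone and doxycycline. D6 cells had spent 6 days in differentiation medium, which kept SCF, erythropoietin and doxycycline, left out dexamethasone and added plasma, holo-transferrin and insulin. H2A.X is a histone variant, and BAZ1B is a kinase that phosphorylates a tyrosine in it. Each KO came from CRISPR/Cas9 deletions with paired guides delivered by lentivirus, and every KO line is a subclone grown from a single cell.

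Chromosomes are copied once per cycle because licensing and firing are separated in time. The origin recognition complex (ORC1 to ORC6) marks origins, and CDC6 and CDT1 load the ring-shaped MCM2 to MCM7 helicase onto them, a step that geminin (GMNN) blocks by binding CDT1. In S phase the kinase CDC7 with its partner DBF4, together with MCM10, CDC45 and the GINS complex, turns the loaded rings into running helicases. Polymerase alpha with primase makes the first stretch, the loader RFC places the sliding clamp PCNA, and polymerases epsilon and delta extend the strands, while RPA coats single-stranded DNA and FEN1 trims flaps. Ribonucleotide reductase, thymidylate synthase and thymidine kinase supply the deoxynucleotides. Erythroid precursors are known to keep dividing through the early steps of maturation, with a short S phase, before they leave the cycle, and many of these genes are textbook targets of E2F factors.

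Promoter sequences show what the members share beyond the list. RefSeq promoter windows (GRCh38.p14), reaching from upstream of a start to shortly after it, were matched by symbol for 40 of the 46 members. The letters TTTCCCGC, TTTGGCGC, TTTGCCGC and TTTCGCGC, which resemble the E2F site, were searched on both strands. A gene counts once however many matches its windows hold, and overlapping matches were allowed. They were found in 19 of 40 members (47.5%), against 5.36% of the 14877 protein-coding genes with a window. CCAAT, the box bound by NF-Y, was found in 24 members (60%, against 42.3% of those genes), and the CHR letters TTTGAA or TTCGAA, an element of genes expressed late in the cycle, in 3 members (7.5%, against 17.5%). The E2F letters stood in 16 of the 32 matched members that rose at D6 in WT of the BAZ1B experiment and in 3 of the other 8. A match of letters is a description and not a binding site.

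The stretches below are those of the members described library by library further on whose E2F letters lie upstream of a RefSeq start. They are written 5′ to 3′ on the strand of the gene, and capitals mark the E2F letters or CCAAT on either strand. The first E2F base lay at position -35 from the start in CDT1, -80 in GMNN, -31 in GINS2, -59 in PCNA, -137 in POLA1, -53 in POLA2, -18 in POLE and -39 in TYMS.
CDT1 (chr16:88803728-88803787, plus strand): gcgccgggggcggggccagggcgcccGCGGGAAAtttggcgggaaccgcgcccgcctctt
GMNN (chr6:24775307-24775366, plus strand): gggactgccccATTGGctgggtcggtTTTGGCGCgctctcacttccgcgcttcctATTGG
GINS2 (chr16:85688955-85689011, minus strand): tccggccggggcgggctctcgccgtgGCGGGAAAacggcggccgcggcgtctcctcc
PCNA (chr20:5126648-5126707, minus strand): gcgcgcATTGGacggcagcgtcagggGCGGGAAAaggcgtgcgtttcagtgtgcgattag
POLA1 (chrX:24693755-24693814, plus strand): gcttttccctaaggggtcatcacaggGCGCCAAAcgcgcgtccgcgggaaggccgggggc
POLA2 (chr11:65261883-65261942, plus strand): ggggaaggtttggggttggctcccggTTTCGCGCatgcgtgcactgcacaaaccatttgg
POLE (chr12:132687343-132687386, minus strand): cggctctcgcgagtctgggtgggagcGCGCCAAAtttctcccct
TYMS (chr18:657588-657647, plus strand): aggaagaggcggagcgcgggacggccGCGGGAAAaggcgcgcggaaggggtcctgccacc
CDT1, GINS2, PCNA and TYMS carried the same E2F letters, read on the opposite strand, although their changes between groups differ below. GMNN, which restrains licensing, also held CCAAT on the opposite strand on either side of its E2F letters. The stretches of GMNN and GINS2 lie wholly inside the gene as GENCODE annotates it, and those of POLA2 and POLE lie partly inside.

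Total counts per library lay between 33199408 and 41273244 in the BAZ1B experiment and between 11910141 and 21013004 in the H2A.X experiment, whose replicates also varied more (common biological coefficient of variation 0.239 against 0.0865). The normalized count of H2AFX, the table's name for the H2A.X gene, was 1575 to 2391 in WT and 308 to 1050 in KO, and that of BAZ1B was 9104 to 9913 in WT and 6556 to 8349 in KO; reads outside a deletion are still counted, so neither range measures loss of protein. Redo appears in the column names of 5 of the 6 libraries of H2A.X KO cells, the exception being replicate 3 at D6, and in no name of a WT column. What it stands for is not given, and it cannot be told apart from the genotype. The sum of 10 erythroid marker genes rose in the BAZ1B experiment from 243914 to 271127 in WT at D0 to 1415320 to 1613950 at D6, and from 286986 to 304736 to 1200190 to 1413890 in KO. In the H2A.X experiment it was 410810 and 557614 in WT at D0, 642642 and 1066810 in WT at D6, 213130 to 281867 in KO at D0 and 746901 to 1227940 in KO at D6. The sum of 8 mast cell and eosinophil markers went in the BAZ1B experiment from 17547 to 19094 at D0 to 1127 to 1532 at D6 in WT, and from 17031 to 23279 to 459 to 1442 in KO. In the H2A.X experiment it was 1821 and 2456 in WT at D0, 2541 and 4069 in WT at D6, 3679 to 7368 in KO at D0 and 54.2 to 237 in KO at D6. HDC and CLC were below a normalized count of 10 in every library of both experiments, and CPA3, MS4A2, PRG2 and EPX were below it at D6 in both and also at D0 in H2A.X WT. Of 4 megakaryocyte markers, PF4, PPBP and GP9 stayed below 10 throughout, and the sum, carried by ITGA2B, moved with the groups. In the BAZ1B experiment it was 2718 to 2836 at D0 and 312 to 390 at D6 for WT, and 1291 to 2542 and 53.4 to 179 for KO. In the H2A.X experiment it was 153 and 170 at D0 and 62.6 and 139 at D6 for WT, and 575 to 1330 and 34.0 to 84.0 for KO. The part of these cell markers in the results below was not tested.

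Replication genes were expressed over a wide range in proliferating WT cells. Per kilobase of transcript, TYMS, which makes thymidylate, stood highest in WT at D0 of the BAZ1B experiment, at 9229 ± 205 normalized counts per kb (SD, n = 3), followed by PCNA at 8325 ± 321 and MCM7 at 7431 ± 76.9. POLA2, the regulatory subunit of polymerase alpha, stood lowest at 106 ± 2.39, below ORC4 at 329 ± 5.78 and POLD3 at 457 ± 1.89. POLA2 overlaps another transcript on its own strand, as described below, and the part of this overlap in its level was not tested. GINS4, POLE, PRIM2 and GINS3 were next to each other between 724 and 733 normalized counts per kb, closer than their replicates spread. Subunits of 1 complex were not at 1 level. From highest to lowest subunit, the 6 MCM genes differed 2.92-fold per kb, with MCM7 at the top and MCM6 at the bottom, whereas the 4 GINS genes differed only 1.05-fold.

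Maturation raised most of the replication genes in WT cells of the BAZ1B experiment. Between D0 and D6, 37 of the 46 rose and 1 fell at an adjusted p below 0.05 (edgeR quasi-likelihood test, Benjamini-Hochberg over all genes tested), where 33.5% of all genes rose and 35.4% fell. The median log2 fold change was 0.36 over the members and -0.015 over all genes. All counts on the members together made up 0.709% ± 0.00647 of a library at D0 and 0.862% ± 0.00275 at D6 (SD, n = 3), and the lowest D6 library lay above the highest D0 library. In bulk RNA, more cells in S phase and more RNA per cell cannot be told apart. For each of the 38 called members the D0 and D6 libraries did not overlap, as for 99.2% of all genes called. Licensing factors had the highest median change among roles with more than 4 genes (8 of 9 rose, median 0.59), followed by helicase activation (6 of 8, 0.46), clamp and loader (5 of 6, 0.35), polymerases (8 of 9, 0.32) and origin recognition (3 of 6, with 1 lower, 0.14). All 4 genes of single-strand binding and flap removal rose (median 0.35), as did 3 of the 4 of nucleotide supply (median 0.50).

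**Figure D1:**
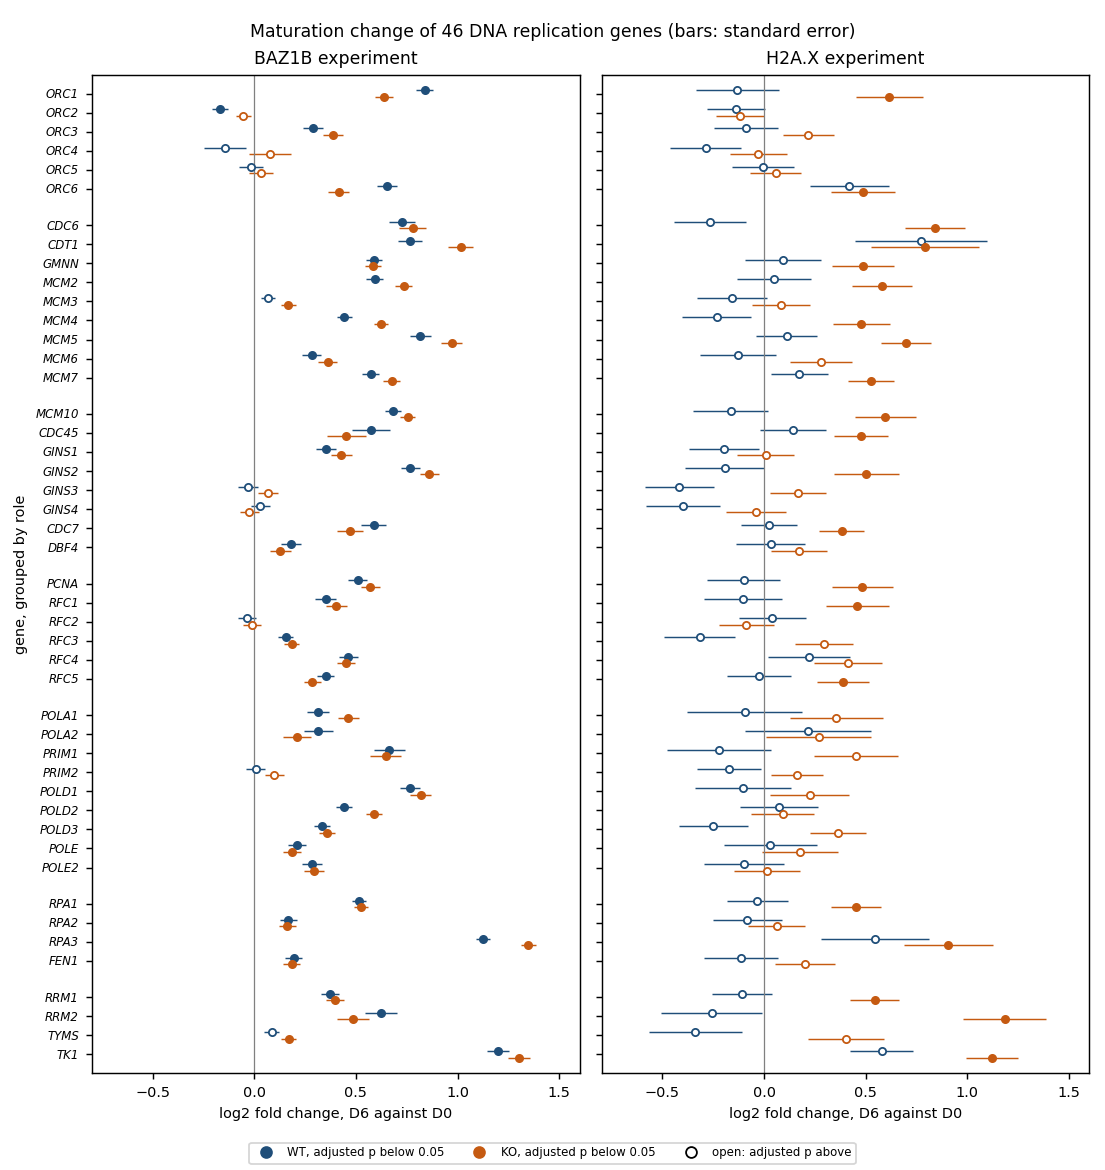
Log2 fold change between D6 and D0 (x axis) of each of the 46 genes (y axis, grouped by role) in the BAZ1B experiment (left) and the H2A.X experiment (right), with standard errors as bars, WT in blue and KO in orange, and filled symbols at an adjusted p below 0.05. Most symbols on the left lie to the right of 0 in both genotypes, with TK1 and RPA3 farthest out, while on the right WT shows no filled symbol and KO 21.

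Within the origin recognition complex the subunits went separate ways. ORC1, the subunit known to vary over the cell cycle, had normalized counts of 2858, 2874 and 2838 at D0 and 5254, 4911 and 5148 at D6. The D6 libraries were all well above those of D0, and the log2 fold change was 0.84 (SE 0.043, edgeR adjusted p = 2.4e-09). ORC6, the least conserved subunit, rose by 0.65 on the log2 scale and ORC3 by 0.29. ORC2 was the only member that fell, from 3931, 3802 and 3774 to 3440, 3507 and 3291, a small decrease of -0.17 (SE 0.039, edgeR adjusted p = 0.0017) without overlap. ORC4 and ORC5 did not pass the test, with -0.14 (SE 0.10) and -0.017 (SE 0.058). The spread between subunits widened from 3.79-fold per kb at D0, with ORC3 highest and ORC4 lowest, to 5.49-fold at D6, with ORC1 highest.

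Licensing genes rose together with their inhibitor. GMNN had 3277, 3274 and 3284 normalized counts at D0 and 5061, 4875 and 4864 at D6, a log2 fold change of 0.59 (SE 0.038, edgeR adjusted p = 1.8e-08), and the 3 D0 libraries were nearly equal. CDT1, which geminin binds, rose by 0.76 and the loader CDC6 by 0.73. Of the helicase subunits, MCM5 rose most (0.82, from a mean of 11211 to 19738), then MCM2 (0.59), MCM7 (0.57), MCM4 (0.44) and MCM6 (0.28). MCM3 alone did not pass the test, with 0.067 (SE 0.035), and only MCM7 and MCM4 stood above it per kb at D0. The ratio between the highest and the lowest MCM subunit went from 2.92 to 3.58.

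Among the genes that start the helicase, only subunits of GINS did not pass the test. MCM10, which helps activate the loaded helicase, had 2970, 2873 and 2881 normalized counts at D0 and 4613, 4716 and 4663 at D6, a log2 fold change of 0.68 (SE 0.038, edgeR adjusted p = 5.3e-09). GINS2 rose by 0.77 and GINS1 by 0.35, but GINS3 (-0.032, SE 0.050) and GINS4 (0.029, SE 0.046) did not pass the test. The 4 GINS genes, within 1.05-fold of each other per kb at D0, were 1.79-fold apart at D6. CDC45 rose by 0.57, the kinase CDC7 by 0.59 and its partner DBF4 by only 0.18.

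At the fork the clamp had a larger estimated rise than each subunit of its loader, and these differences were not tested. PCNA had 10398, 10374 and 11096 normalized counts at D0 and 15318, 14904 and 15130 at D6, a log2 fold change of 0.51 (SE 0.048, edgeR adjusted p = 6.8e-07). The loader subunits RFC4 (0.46), RFC1 and RFC5 (0.35 each) and RFC3 (0.16) rose, and RFC2, which lies on the chromosome of BAZ1B, did not pass the test (-0.036, SE 0.045). POLD1, the catalytic subunit of polymerase delta, had the lowest adjusted p of the polymerases, with 6046, 6151 and 6633 at D0 and 10507, 10396 and 11120 at D6 (log2 fold change 0.77, SE 0.050, edgeR adjusted p = 2.2e-08). PRIM1, the catalytic primase subunit, rose by 0.66, POLD2 by 0.44, POLD3 by 0.34, POLA2 by 0.32, POLA1 by 0.31, POLE2 by 0.28 and POLE by 0.21, while the second primase subunit PRIM2 was at 0.0067 (SE 0.047). RPA3, the smallest RPA subunit, more than doubled, from 1457, 1479 and 1507 to 3279, 3218 and 3191 (log2 fold change 1.12, SE 0.036, edgeR adjusted p = 6.2e-11), whereas RPA1 rose by 0.51 and RPA2 by 0.17. RPA3 had been lowest of the 3 per kb and stayed so, at 4.07-fold under RPA2 at D0 and 2.09-fold at D6. FEN1 rose by 0.19.

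Nucleotide supply held the strongest riser and one of the weakest. TK1, the thymidine kinase of the salvage route, went from 3403, 3208 and 3207 to 7728, 7005 and 7781 normalized counts, a log2 fold change of 1.20 (SE 0.053, edgeR adjusted p = 7.6e-10). RRM2, the regulated subunit of ribonucleotide reductase, rose by 0.62 and RRM1 by 0.37. TYMS, highest of all per kb at D0, was at 0.086 (SE 0.037) and did not pass the test. TYMS shares 39.9% of its exon bases with ENOSF1 on the opposite strand, and because the sources name both a stranded and an unstranded kit, its reads cannot be fully assigned.

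**Figure D2:**
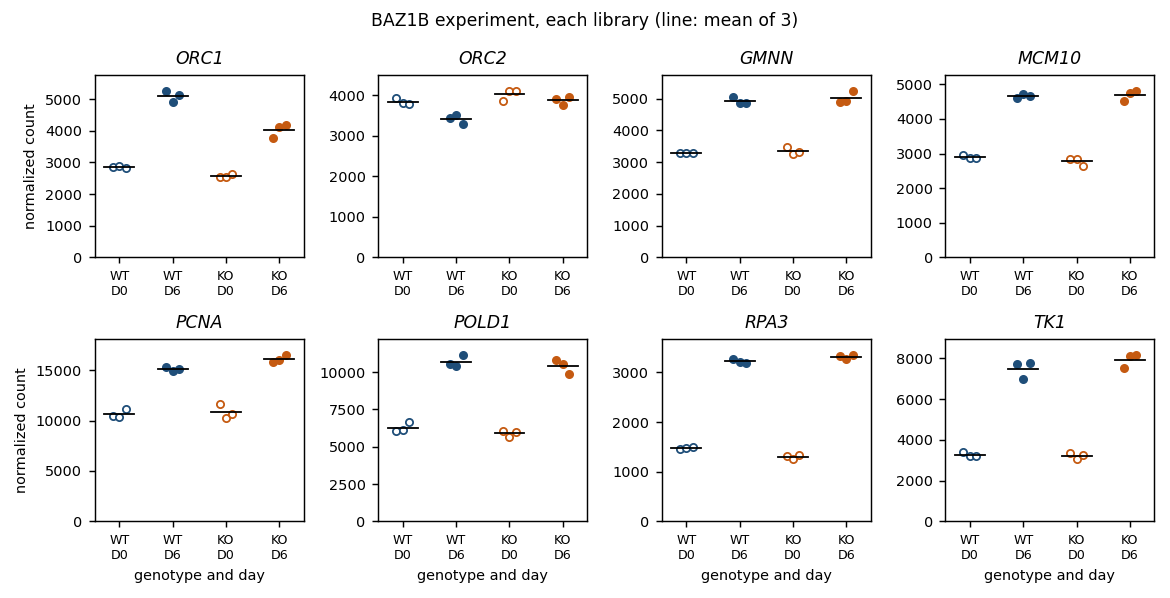
Normalized count (y axis, from 0) of 8 members in each library of the BAZ1B experiment by genotype and day (x axis), with WT in blue, KO in orange, D0 open, D6 filled and a line at the mean of 3. In both genotypes D6 lies above D0 for 7 of the 8 genes, ORC1 at D6 is lower in KO than in WT, and ORC2 falls slightly in WT.

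BAZ1B KO cells showed the same kind of rise. Between D0 and D6, 39 members rose and 0 fell by edgeR in KO, where 33.2% of all genes rose and 34.5% fell, with a median log2 fold change of 0.42 over the members and -0.023 over all genes; DESeq2 also called 39 and 0, and 39 members had an unadjusted p below 0.05. The 37 that rose in WT rose in KO as well, and MCM3 (0.17) and TYMS (0.17) were the other 2. TK1 was again among the largest with 1.30, from 3349, 3056 and 3250 to 7509, 8130 and 8154, and RPA3 went up by 1.35, from 1309, 1264 and 1328 to 3322, 3268 and 3343. CDT1 rose by 1.01 and MCM5 by 0.97. Groups overlapped for DBF4 (2382, 2660 and 2591 at D0, 2653, 2841 and 2844 at D6), while they did not for 94.5% of all genes called and 68% of all genes. The share of counts on the members reached 0.887% ± 0.00662 in KO at D6 from 0.702% ± 0.0268 at D0 (SD, n = 3).

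Few replication genes differed between BAZ1B KO and WT. At D0, 0 members were higher by edgeR and 2 were lower, where 1.25% of all genes were higher and 2.64% lower; 7 members had an unadjusted p below 0.05, and DESeq2 gave the same 0 and 2. RPA3 had 1309, 1264 and 1328 normalized counts in KO and 1457, 1479 and 1507 in WT (log2 fold change -0.19, SE 0.036, edgeR adjusted p = 0.011). MCM4 had 24599, 23256 and 23964 in KO and 26480, 26450 and 26296 in WT (-0.14, SE 0.036, edgeR adjusted p = 0.047). Groups did not overlap for either gene, as for 22.5% of all genes and 99.6% of all genes called, and both differences were small. The MCM4 call was lost in 15 of the alternative settings. Leaving out KO replicate 1 at D0 gave 5 called members (4.16% of all genes higher and 5.2% lower), and leaving out WT replicate 3 at D0 gave 0 (0.588% and 1.47%).

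At D6, 6 members were higher and 2 lower in BAZ1B KO, where 6.87% of all genes were higher and 5.97% lower. The median over the members was 0.023 and over all genes -0.0037. Origin recognition held 4 of the 8. ORC4 had 3056, 2401 and 3005 normalized counts in KO and 2021, 1919 and 1911 in WT (log2 fold change 0.53, SE 0.11, edgeR adjusted p = 0.0051), and KO replicate 2 lay closest to WT. ORC2 had 3903, 3767 and 3949 in KO and 3440, 3507 and 3291 in WT (0.18, SE 0.039, adjusted p = 0.0078). ORC1 was lower in KO, at 3760, 4115 and 4169 against 5254, 4911 and 5148 (-0.35, SE 0.043, adjusted p = 0.00021). ORC6 was lower too, at 2215, 2342 and 2280 against 2490, 2615 and 2734 (-0.20, SE 0.050, adjusted p = 0.021). In none of these 4 genes did the KO and WT libraries overlap, as for 98.8% of all genes called. CDT1 had 11447, 10835 and 12052 in KO and 9525, 8648 and 10362 in WT (0.27, SE 0.059, adjusted p = 0.010). PRIM2 (0.17), MCM3 (0.13) and TYMS (0.13) were the remaining higher members. With WT replicate 2, WT replicate 3 or KO replicate 3 at D6 left out, 4 members were called (4.42%, 4.14% and 5.16% of all genes higher and 4.29%, 3.73% and 4.38% lower). With WT replicate 2 at D0 or KO replicate 2 at D6 left out, 5 were called (5.81% and 5.79% higher, 4.93% and 5.36% lower).

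WT cells of the H2A.X experiment showed no such rise at the precision of 2 replicates. By edgeR 0 members rose and 0 fell between D0 and D6, where 0.839% of all genes rose and 1.16% fell. An unadjusted p below 0.05 was seen for 3 members. DESeq2 called 1 member higher (TK1), where it called 3.5% of all genes higher and 4.56% lower. Of the 46 members, 16 had a log2 fold change above 0, and the median was -0.10 (all genes 0.0086). TK1 had 2212 and 2753 normalized counts at D0 and 3619 and 3799 at D6 (0.58, SE 0.15, adjusted p = 0.083). CDT1 had 3101 and 4111 at D0 and 5754 and 6562 at D6 (0.77, SE 0.32, adjusted p = 0.21). Both pairs lay apart without overlap, as did the groups for 51.3% of all genes and 37% of the members. Both genes were called once the replicate number was a block (edgeR adjusted p = 0.037 and 0.018). With that block 4.4% of all genes rose and 4.11% fell. PCNA, with 9979 and 13869 at D0 and 11266 and 10962 at D6, had a change of -0.10 (SE 0.18, 95% interval -0.46 to 0.25). The median standard error over the members was 0.18 here and 0.047 in WT of the BAZ1B experiment, and the difference between the experiments was not tested. The WT replicates at D6 also differed in the share of counts on the members, 0.837% and 0.675%, and WT replicate 2, the lower, had the smallest total of all libraries.

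**Figure D3:**
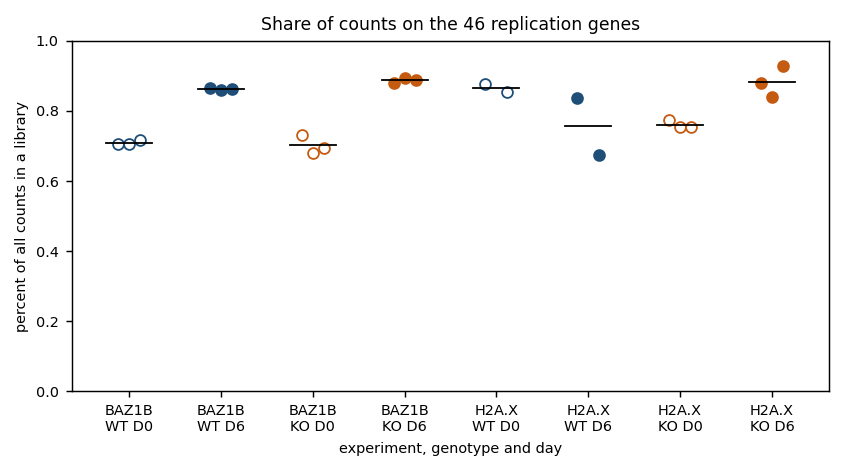
Percent of all counts of a library that fell on the 46 genes (y axis, from 0), by experiment, genotype and day (x axis), with 1 point per library, WT in blue, KO in orange, D0 open, D6 filled and a line at the group mean. D6 lies above D0 in BAZ1B WT, BAZ1B KO and H2A.X KO, but not in H2A.X WT, whose 2 D6 libraries are 0.675% and 0.837%.

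H2A.X KO cells raised the replication genes between D0 and D6. By edgeR 21 members rose and 0 fell, where 14.8% of all genes rose and 16.1% fell, and DESeq2 called 22 and 0 and 23 members had an unadjusted p below 0.05. The median was 0.38 over the members and 0.019 over all genes. All 21 were also among those that rose in BAZ1B WT. Nucleotide supply had the highest median change (0.83, 3 of 4 higher), followed by licensing (0.53, 7 of 9 higher), while none of the 9 polymerase genes passed the test (median 0.22, range 0.014 to 0.45). Among the polymerases, the replicate number as a block gave calls for PRIM1 and POLD3 (18.2% of all genes higher, 20.3% lower). DESeq2 called POLD3 (16.9% and 17.8%). The length and GC correction described below called POLD3 (16.9% and 18.7%), and with the block POLA1, POLD1, POLD3 and POLE (19.4% and 22.2%). RRM2 rose most, from 3335, 3786 and 3415 to 7186, 10922 and 5806 normalized counts (log2 fold change 1.18, SE 0.21, edgeR adjusted p = 0.0023), with wide scatter at D6. TK1 rose from 1376, 1402 and 1312 to 2922, 3221 and 2759 (1.12, SE 0.13, adjusted p = 0.00028). CDC6 went up by 0.84, CDT1 by 0.79 and MCM5 by 0.70, and CDT1 alone of the 21 had overlapping groups (1080, 2051 and 1887 at D0, 2005, 3201 and 3468 at D6). The groups did not overlap for 97.5% of all genes called and 48.8% of all genes either. The number called fell to 9, 10 and 8 without KO replicate 1, 2 or 3 at D0 and to 10 without KO replicate 2 at D6, with 0 lower in each, while the share of all genes called higher fell to 9.57%, 8.88%, 8.82% and 9.67%.

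Before maturation, more replication genes were called lower than higher in H2A.X KO cells. At D0, 2 members were higher and 18 lower by edgeR, where 18.4% of all genes were higher and 16.7% lower, and the median was -0.21 over the members and 0.013 over all genes. GINS2 had 956, 1004 and 1002 normalized counts in KO and 1783 and 2728 in WT (log2 fold change -1.19, SE 0.18, edgeR adjusted p = 0.0042). TYMS had 5423, 5124 and 6174 in KO and 11102 and 14838 in WT (-1.22, SE 0.21, adjusted p = 0.0055). POLA2 had 191, 144 and 155 in KO and 304 and 469 in WT (-1.24, SE 0.28, adjusted p = 0.011). In these 3 the groups were apart, as for 70.3% of all genes and 100% of all genes called. Their KO libraries were close together and their WT libraries spread. The higher members were POLA1, the catalytic subunit of polymerase alpha, with 1678, 1401 and 1460 in KO and 1024 and 677 in WT (0.83, SE 0.26, adjusted p = 0.034), and POLE, with 2129, 1948 and 2034 against 1699 and 957 (0.62, SE 0.21, adjusted p = 0.047). Of polymerase alpha, the catalytic subunit was higher and the regulatory subunit lower. With the length and GC correction described below, POLA1 lost its call and POLA2 kept it. Of the 18 lower members, only 7 kept their call with that correction. In the same comparison 9 of the 10 erythroid markers were lower in KO, 3 of the 5 mast cell and eosinophil markers tested were higher, and so was the 1 megakaryocyte marker tested (ITGA2B, 2.39). Their part in the result was not tested. Among the other lower members were RPA3 (-1.17), CDT1 (-1.11), GMNN (-0.93), TK1 (-0.86), RFC4 (-0.84), POLD2 (-0.83), PCNA (-0.77), CDC45 (-0.68), FEN1 (-0.67) and CDC6 (-0.57), and MCM5, MCM7, ORC6, GINS3 and RPA2 were between -0.52 and -0.45. Without WT replicate 2 at D0, 0 members were called (0.365% of all genes higher and 0.186% lower), and without KO replicate 1, 2 or 3 at D0, 13, 13 and 11 were lower and 0 higher, while 8.19%, 9.76% and 8.81% of all genes were lower and 11.3%, 12.6% and 12% higher. The median over the members was -0.12 without WT replicate 2 at D0 and -0.34 without WT replicate 1 at D0.

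At D6 more members were called higher than lower in H2A.X KO, unlike at D0, but 0 members were called in the direct test between days below. By edgeR 20 members were higher and 8 lower in KO, where 22.2% of all genes were higher and 20.9% lower, and the median was 0.16 over the members and -0.0062 over all genes. POLA1 had 2217, 2065 and 1523 normalized counts in KO and 996 and 592 in WT (log2 fold change 1.28, SE 0.27, edgeR adjusted p = 0.0059). PRIM1 had 1118, 848 and 738 in KO and 546 and 345 in WT (1.01, SE 0.24, adjusted p = 0.0089). RFC1, the large loader subunit, had 3646, 3964 and 2729 in KO and 1847 and 1625 in WT (0.99, SE 0.18, adjusted p = 0.0042). Replicate 3 was the lowest KO library in each. POLA2 stayed lower, with 171, 159 and 261 in KO and 372 and 526 in WT (-1.19, SE 0.28, adjusted p = 0.0087). CDT1 had 2005, 3201 and 3468 in KO and 5754 and 6562 in WT (-1.09, SE 0.29, adjusted p = 0.014). RPA3 had 2114, 2094 and 2387 in KO and 3307 and 4395 in WT (-0.81, SE 0.24, adjusted p = 0.021). CDT1, GMNN, GINS2, RFC4, POLA2, POLD2 and RPA3 were lower and POLA1 and POLE higher at both days, and CDC6 was lower at D0 and higher at D6. Also higher at D6 were POLD3 (0.93), ORC1 (0.89), MCM10 (0.88), RRM2 (0.86), GINS4 (0.78), MCM4 (0.77) and RFC3 (0.75). Without WT replicate 2 at D6, 0 members were called (0.42% of all genes higher and 0.68% lower). Fitted on the D6 libraries alone, 12 were higher and 5 lower (16.7% and 13.3% of all genes). The median over the members was 0.066 without WT replicate 2 at D6 and 0.34 without WT replicate 1 at D6.

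**Figure D4:**
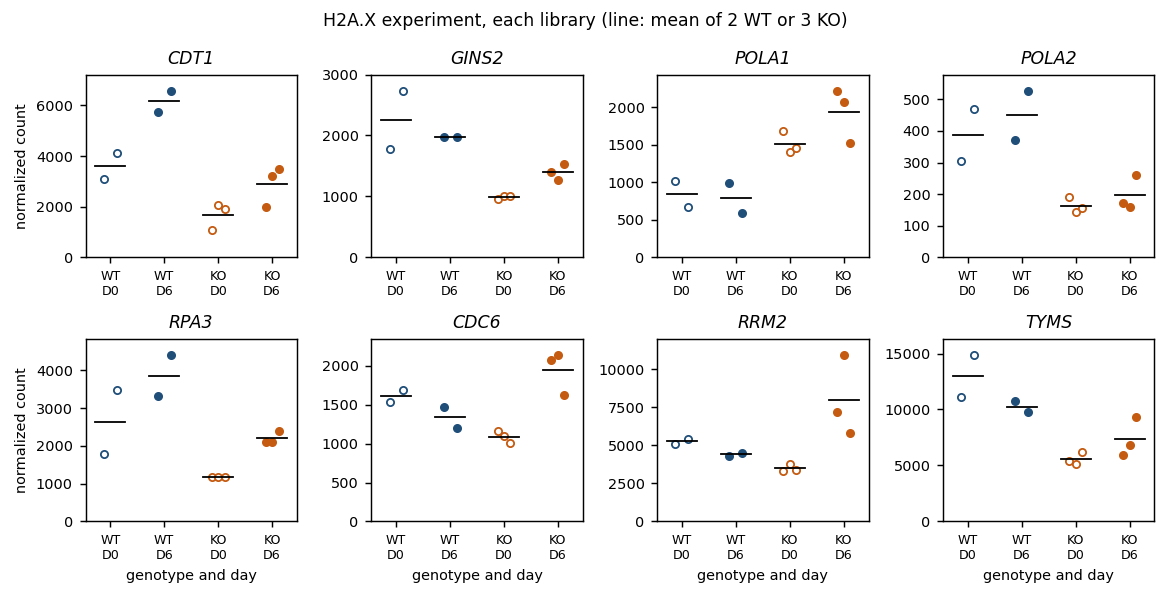
Normalized count (y axis, from 0) of 8 members in each library of the H2A.X experiment by genotype and day (x axis), with WT in blue, KO in orange, D0 open, D6 filled and a line at the mean of 2 WT or 3 KO libraries. KO lies below WT at both days for CDT1, GINS2, POLA2 and RPA3 and above it for POLA1, while CDC6 and RRM2 lie below WT at D0 and above it at D6.

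The H2A.X KO effect moved with transcript length. Across 11717 genes with a known length, Spearman's rho between length and the KO effect was 0.54 at D0 and 0.60 at D6, and across the 46 members it was 0.54 and 0.57; these are correlations across genes, which are not independent, and all share the same libraries. In the BAZ1B experiment the same rho across 12105 genes was -0.025 at D0 and 0.051 at D6. The 23 members shorter than 2866 bp had a median KO effect of -0.52 at D0 and -0.32 at D6, against 0.019 and 0.54 for the 23 longer ones. The WT libraries of the H2A.X experiment differed from each other in the same way, with a rho of -0.47 at D0 and -0.37 at D6 for replicate 2 minus replicate 1. KO replicate 3 at D6, the only KO library without the word Redo, had a rho of -0.37 against KO replicate 1 and -0.28 against KO replicate 2, while KO libraries at D0 differed by rho values between -0.15 and 0.10.

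With each library corrected for transcript length and GC content, fewer members differed. At D0, 8 were lower and 0 higher, and of all genes 10.1% were lower and 10.3% higher, so calls became fewer in general. GINS2 (-1.06), POLA2 (-1.30), TYMS (-0.76), RPA3 (-0.87), CDC6, GMNN and MCM5 kept their call, and ORC4 gained one. POLE, the longest of the members, went from 0.62 to 0.0033 and POLA1 to 0.36 (adjusted p = 0.21). At D6, 16 were higher and 3 lower, where 11.2% of all genes were higher and 10.5% lower. POLA2 (-1.24) was the only lower member that kept its call, while ORC4 and DBF4 gained one. Among the higher ones PRIM1 (1.39), ORC1 (0.89), RFC3 (0.75), POLA1 (0.67), MCM2, MCM4, RFC1 and POLD3 kept theirs, and CDT1 (-0.50, adjusted p = 0.19) and RPA3 (-0.55, adjusted p = 0.064) lost theirs, while POLD1 (0.59) and TK1 (0.55) gained a higher call. TYMS lies on chromosome 18, whose 155 tested genes had a corrected median of -0.33 at D0 against 0.055 elsewhere, and -0.26 against 0.069 at D6, where TYMS itself was at -0.0061. POLA2 shares 2012 bp with a readthrough transcript on the same strand. This is 16.8% of the exon bases of all its transcripts together, while the single transcript used for its level per kb has 3544 bp. The part of the chromosome or of the overlap in these values was not tested.

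**Figure D5:**
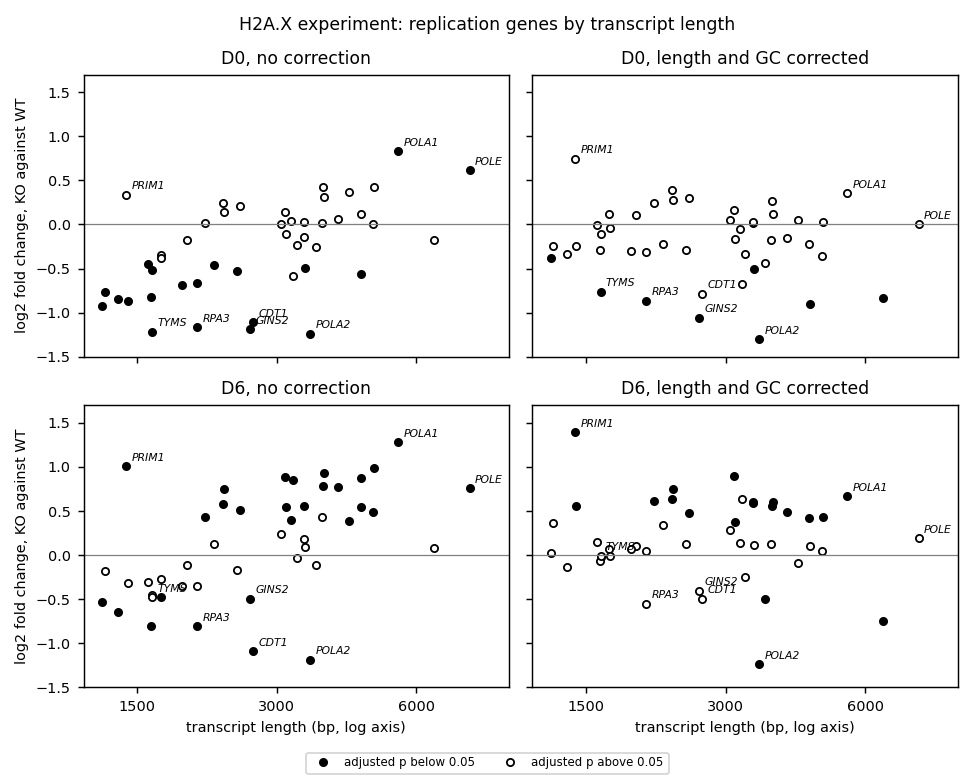
Log2 fold change between H2A.X KO and WT (y axis) against transcript length in bp (x axis, log scale) for the 46 genes at D0 (top) and D6 (bottom), without correction (left) and corrected for length and GC content (right), with filled symbols at an adjusted p below 0.05. On the left the points rise from short to long transcripts, and on the right they do not, while POLA2 stays lowest in all 4 panels.

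The difference between the KO effects at D6 and D0 was tested directly. In the H2A.X experiment 0 members were called higher and 0 lower by edgeR, where 0.302% of all genes were higher and 1.04% lower, although 45 of 46 members were above 0, 17 had an unadjusted p below 0.05, and the median was 0.36 (all genes 0.0081). All members share the same libraries, so this count is a description. CDC6 came closest, with 1.11 (SE 0.23, adjusted p = 0.0501), ahead of RRM2 with 1.44 (SE 0.32, adjusted p = 0.060). These members were chosen after their values were seen. With the replicate number as a block, edgeR called CDC6 (adjusted p = 0.025), RRM2 (0.017) and MCM4 (0.048), where 1.59% of all genes were higher and 2.58% lower. DESeq2 called CDC6, RRM2, RRM1, MCM4 and MCM5, where 2.12% of all genes were higher and 3.01% lower. RFC2 alone was below 0, at -0.13 (SE 0.21). Without KO replicate 3 at D6, 5 members were called, all higher, where 3.63% of all genes were higher and 2.82% lower, and without KO replicate 2 at D6, 1 was (0.252% and 0.818%).

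In the BAZ1B experiment 1 member was called higher and 0 lower, where 1.58% of all genes were higher and 0.893% lower, and the median was 0.052 (all genes 0.0051). RPA3, lower in KO at D0 (-0.19) and at 0.036 (SE 0.035) at D6, had a difference of 0.22 (SE 0.050, edgeR adjusted p = 0.037). Its call was lost in 14 of the alternative settings, and leaving out KO replicate 1 at D0 gave 3 members higher and 1 lower (3.37% and 2.04% of all genes).

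No member passed the stricter DEG cutoff (adjusted p below 0.001 and absolute log2 fold change above 1.5) in any of the 4 KO comparisons, which 0.36% and 0.749% of all genes passed at D0 and D6 in the BAZ1B experiment and 0.166% and 0.151% in the H2A.X experiment.

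Related genes outside the list of 46 moved unevenly. With maturation 33.5% of all genes rose and 35.4% fell in BAZ1B WT, and 33.2% rose and 34.5% fell in BAZ1B KO. In H2A.X KO 14.8% of all genes rose and 16.1% fell. Of 24 other fork and origin factors, 12 rose and 3 fell with maturation in BAZ1B WT (median 0.30), and 4 rose and 0 fell in H2A.X KO (median 0.18). The 4 of 24 risers in H2A.X KO lie near the share of all genes. Of 13 other genes of nucleotide supply, 7 rose and 5 fell in BAZ1B WT. DCK, the deoxycytidine kinase, rose by 1.35, while TYMP, which breaks down thymidine, fell by 3.65, SAMHD1, which degrades deoxynucleotides, fell by 1.83 and the p53-inducible reductase subunit RRM2B fell by 0.29. Of 13 E2F and pocket protein genes, 10 rose and 3 fell there: E2F2 rose by 2.14, E2F4 by 1.01 and E2F8, a repressor, by 0.97, whereas E2F5 fell by 1.604, E2F3 by 0.94 and E2F6 by 0.56. In H2A.X KO, 6 rose and 2 fell, with E2F2 at 2.47. Genes of mitosis, taken for comparison, rose as well in BAZ1B WT, 17 of 18 tested with a median of 0.49, and 13 of 18 in BAZ1B KO.

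In H2A.X KO, 3 of the 18 mitotic genes rose with maturation and 0 fell (median 0.30), near the 14.8% of all genes that rose there. In H2A.X WT 0 rose and 0 fell (median 0.35, 3 with an unadjusted p below 0.05), where 0.839% of all genes rose and 1.16% fell. The interaction median of the mitotic genes in the H2A.X experiment was 0.021, against 0.36 for the replication genes, and this difference was not tested. At D6 in BAZ1B KO, 5 mitotic genes were lower and 0 higher than in WT (median -0.07), while 6 replication genes were higher and 2 lower. Of all genes, 6.87% were higher and 5.97% lower there.

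Across the 12 libraries of the BAZ1B experiment, the genes, out of the members and the listed related genes, whose log2 normalized counts followed MCM2 most closely were TK1 (Pearson's r = 0.997), MCM7 (0.997), MCM5 (0.994), POLD2 (0.990) and RPA1 (0.989). All 12 libraries fall into 2 clusters by day, so these values mostly describe a shared difference between D0 and D6.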

How the data were processed

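RNA-Seq libraries of HUDEP-2 cells were analysed from 2 tables of raw read counts per gene that the authors deposited, 1 per experiment. Per the submitters' processing notes, reads were processed with STAR 2.7.0f and featureCounts from Subread 1.6.4, and DESeq2 1.22.1 was used; the build was hg38 with GENCODE annotation. One source names a stranded library kit and another an unstranded kit, so reads of overlapping genes on opposite strands may be shared. The study describes the WT and KO lines as subclones and numbers its KO subclones KO1 to KO3. Column names of the KO libraries carry the same numbers, but no label states that these are the same lines. For WT libraries the labels give only a replicate number. The p-values therefore measure the spread between these libraries.

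Genes were filtered (filterByExpr, minimum count 10, minimum total count 15), scaled by TMM and tested per experiment with the two-sided quasi-likelihood F test of edgeR 4.0.16 (R 4.3.3), with 1 coefficient for each genotype and day. P-values were adjusted by Benjamini-Hochberg over all genes tested, and genes at an adjusted p below 0.05 were called. To give normalized counts, each count was divided by its library's TMM-scaled size over the average such size in the experiment, so levels are comparable only within an experiment. Standard errors were taken from the fold change and its F value. Length and GC content came from transcripts of a later GENCODE release for 88.5% (H2A.X) and 87.2% (BAZ1B) of tested genes, and the correction fitted a smooth function per library (mgcv 1.9.3). DESeq2 1.42.0 served as an alternative. No difference between experiments was tested. On simulated counts for the KO effect at D0, 23 of 67 genes changed by a log2 fold of 1 were recovered in the H2A.X experiment (12917 genes) and 62 of 67 in the BAZ1B experiment (13600 genes).

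The members and gene lists were chosen with earlier results of these data known. Values in every library were given for the member with the lowest adjusted p of each role in maturation of BAZ1B WT, members called against their role there, and the 3 called members with the largest change in each direction of each KO comparison and interaction. TK1, RPA3, RRM2, PCNA, CDT1 and DBF4 in other maturation comparisons were added after their values were seen. Replicate numbers paired D0 with D6 libraries in the H2A.X experiment (correlations of deviations from group means 0.311 to 0.605) and in BAZ1B KO (0.151 to 0.633), but not all in BAZ1B WT (0.0069 to 0.208). Same-numbered KO and WT libraries were not taken as pairs in the main fits. Their correlations were 0.077 to 0.215 in the H2A.X experiment (other numbers -0.215 to 0.0090) and -0.076 to 0.214 in the BAZ1B experiment. The replicate block of the KO effects, an alternative, did put same-numbered KO and WT libraries in 1 block.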

Additional observations from a re-analysis of the deposited data

Results flagged for a closer look

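The KO effect of BAZ1B on RPA3 differed between D6 and D0 by an interaction of 0.22 on the log2 scale (SE 0.050, edgeR adjusted p = 0.037), with the KO effect at -0.19 at D0 and 0.036 at D6. All 3 KO libraries lay below all 3 WT libraries at D0 (1264 to 1328 against 1457 to 1507), and the groups overlapped at D6. At D0 the groups did not overlap for 22.5% of all genes. The adjusted p was 0.051 with the replicate number as a block and 0.012 by DESeq2. No group held the 4 libraries that a check for single outlying libraries needs.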

How the results depend on the processing

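For members described library by library, 451 of 517 alternative values kept direction and call, 65 kept the direction but not the call, and 1 turned: POLE in the H2A.X KO effect at D0 went to -0.036 with the length and GC correction and the replicate block. The count of called members in WT maturation of the BAZ1B experiment (38) went to 0 at the DEG cutoff, as did that in KO maturation of the BAZ1B (39) and H2A.X (21) experiments, in all 4 KO comparisons and in the BAZ1B interaction. In maturation of H2A.X WT (0) it was 1 by DESeq2 and without a filter, and 2 with the replicate block with or without the length and GC correction. In the BAZ1B KO effect at D0 (2) it was 1 with upper-quartile scaling and with the length and GC correction and 0 on the compared libraries alone. At D6 (8) it was 5 with the replicate block, which lost MCM3, PRIM2 and TYMS. In the H2A.X KO effect it was 8 at D0 (20) with the length and GC correction and 13 with that and the block, and 17 at D6 (28) on the compared libraries alone. In the BAZ1B interaction (1) it was 2 by DESeq2 and with the correction and block, and 0 with upper-quartile scaling or the block. In the H2A.X interaction (0) it was 5 by DESeq2, 2 with upper-quartile scaling or no filter, 1 without hemoglobin genes or with the correction, and 3 with the block, alone or with the correction. Shares of all genes called moved as well. In the H2A.X interaction the share called higher went from 0.302% to 1.59% with the block and 2.12% by DESeq2. In maturation of H2A.X WT it went from 0.839% to 4.4% and 3.5%. The cause of these shifts was not tested. Leaving out 1 library gave 8 to 20 in H2A.X KO maturation, 0 to 5 and 4 to 9 in the BAZ1B KO effect at D0 and D6, 0 to 24 and 0 to 33 in that of H2A.X, 0 to 4 in the BAZ1B interaction and 0 to 5 in the H2A.X interaction. The replicate block also lost the MCM4 call in the BAZ1B KO effect at D0 (edgeR adjusted p = 0.067), where ORC4 gained one. The median standard error of the members was larger in the H2A.X experiment, and what it comes from was not tested.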
